A study of Mus musculus with 8 samples.

Results

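Spleen was compared with lymph node in mice carrying wild-type Aire, in samples from a study of cells that express Aire outside the thymus. The 4 arrays titled Aire wild-type were used, spleen A and B and lymph node A and B, out of 8 arrays in the series. The other 4 arrays, from Aire knockout tissue, were not used. Each array is an Affymetrix expression array that gives 1 intensity per probe set, a group of short probes for a transcript, on a linear scale. All 45037 probe sets that are not array controls entered, and they name 18193 genes.

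Both groups are defined by tissue and by the wild-type Aire genotype alone. The labels name no strain, age, sex, cell type, sorting gate or number of animals, and do not say what the letters A and B mark. The samples are named here by organ, and the labels do not say whether they are whole organs or cells taken from them. In the top 5% of probe sets on all 4 arrays were 0 of 13 B cell and 0 of 14 T cell genes. For lists this short that is near the 5.74% of all genes, so it does not show that such cells were absent. The B cell gene Ighm reached a signal of 7129 on spleen array A. Of mature migratory dendritic cell genes 17 of 23 were in that top 5%, beside 5.74% of all genes. These lists were written with earlier results of these data known, so the counts are no independent evidence of cell identity. Differences are named by organ, and the mix of cells behind them was not tested. Whether each array holds its own animals is not stated, so a p-value here reflects the spread of these particular samples, some of it possibly technical. In such bulk samples, fewer cells of a type and less RNA per cell cannot be told apart.

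Aire, the autoimmune regulator, is a nuclear protein that drives display of tissue antigens by medullary epithelial cells of the thymus, where T cells that recognise them are deleted. Outside the thymus, Aire is found in rare cells of lymph nodes and spleen that carry MHC class II molecules and resemble antigen-presenting cells. Dendritic cells that mature and move to the T cell zones of lymphoid organs switch on the chemokine receptor Ccr7 and the actin-bundling protein Fscn1. Whether a T cell that meets such a cell is activated or silenced depends on costimulatory ligands and cytokines as well as on antigen.

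Signals are given after scaling the 4 arrays to a common median. Median signal before that scaling lay between 53.8 and 65.3, and the 3'-to-5' ratio of control probe sets between 1.07 and 1.09 for Actb and between 2.99 and 4.53 for Gapdh. Pearson correlations of log2 signals were 0.896 between the spleen arrays, 0.907 between the lymph node arrays and 0.865 to 0.888 between tissues. The letters stood apart in sex-linked transcripts in both tissues. The Y-linked gene Kdm5d had a signal of 10.5 and 19.8 on the spleen and lymph node arrays lettered A, and 283 and 476 on those lettered B, so the A and B samples of a tissue were not repeats of 1 RNA. Xist, the RNA that coats the inactive X, was at 3367 or above on all 4 arrays. Signals under 9.06, the 20th percentile, were raised to that floor before taking log2, and below are called at the floor.

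Aire itself was bright in both tissues. Its signal was 4759 and 4916 in spleen and 2883 and 3339 in lymph node. It lay in the top 5% of all probe sets on every array, and both spleen values were above both lymph node values, which held for 26.6% of all genes tested (15.5% the other way round). The spleen minus lymph node difference was 0.64 ± 0.22 on the log2 scale (SE, n = 2 and 2), a 1.56-fold ratio with a 95% interval of ± 0.47 around the log2 difference, and its adjusted p by limma was 0.271. The adjusted p is over all probe sets tested. A difference in Aire between the tissues therefore did not pass the test.

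The other markers of mature antigen-presenting cells were bright in both tissues, and their groups overlapped. Bright here means in the top 5% of all probe sets on all 4 arrays, which held for 5.74% of the genes on the array. Because probe sets respond differently, no gene's signal is set against another's. Ccr7 signal was 12040 and 13120 in spleen and 10190 and 13930 in lymph node. Fscn1 signal was 10650 and 10760 in spleen and 9445 and 11790 in lymph node. H2-Aa, the alpha chain of an MHC class II molecule, had 11500 and 12690 in spleen and 10370 and 13090 in lymph node. The MHC class II invariant chain Cd74 had 13750 and 14220 in spleen and 11880 and 14590 in lymph node. Differences of these 4 genes were between 0.02 and 0.09 on the log2 scale, with 95% intervals of ± 0.38 to ± 0.42.

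The list of mature migratory dendritic cell genes was bright as a body. Of 23 members on the array 17 were bright in both tissues. The list was written with earlier results of these data known, so this count is no independent evidence of cell identity. Of 21 tested members 0 passed the test in either direction (5 had an unadjusted p under 0.05). That is near the share of all genes called, 0.388% higher in spleen and 0.303% higher in lymph node. At least 2-fold higher in lymph node without overlap were 3 of 21, beside 5.23% of all genes, and 0 of 21 were so in spleen, beside 6.06%. The members included Marcksl1, Tmem123 and Basp1, with Socs2, a feedback inhibitor of cytokine signalling, and Traf1, an adaptor of TNF receptors. Cd83, a surface marker of mature dendritic cells, had signals of 7381 and 8209 in spleen and 7514 and 9280 in lymph node. Cd40, the receptor through which T cells license antigen-presenting cells, had 4328 and 4645 in spleen and 4357 and 5582 in lymph node. The median difference over the tested members was 0.02, beside 0.10 over all probe sets tested. Among MHC class II presentation genes 8 of 11 were bright and the median difference was 0.08. Of these 11 genes 0 passed the test (1 at an unadjusted p under 0.05), again near the share of all genes called.

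Conventional dendritic cell genes were mixed. Of 17 members on the array 5 were bright, namely the transcription factors Zbtb46, Irf8 and Id2, the endocytic receptor Ly75, known as DEC-205, and the glycoprotein Cd24a. Zbtb46, which marks the conventional dendritic cell lineage, had signals of 3061 and 2559 in spleen and 2706 and 2983 in lymph node. Ly75 had 4958 and 4708 in spleen and 2515 and 2988 in lymph node, with both spleen values above and an adjusted p of 0.16. Itgax, which encodes the dendritic cell integrin CD11c, was low, at 117 and 72.9 in spleen and 254 and 126 in lymph node. Xcr1, the chemokine receptor of cross-presenting dendritic cells, stayed under the filter on low signals, with values from 19.7 to 42.2.

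Genes shared with medullary thymic epithelium and with lymphoid tissue inducer cells were present in part. The transcription factor Spib was bright, with signals of 4102 and 3977 in spleen and 2346 and 2578 in lymph node, and the spleen values were the higher ones without passing the test (adjusted p 0.226). Epcam, an epithelial adhesion molecule also found on some dendritic cells, had 2036 and 2331 in spleen and 1338 and 1878 in lymph node. Tnfrsf11a, the receptor RANK that induces Aire in the thymus, had 509 and 885 in spleen and 598 and 744 in lymph node. The tissues overlapped for Tnfrsf11a. Il7r, the interleukin receptor of lymphoid progenitors and innate lymphoid cells, was bright, with 5335 and 5823 in spleen and 3954 and 4597 in lymph node. Kit, the stem cell factor receptor of such cells, had values from 527 to 793 with overlapping groups. Tnfsf11, the RANK ligand, had 11.0 and 0.876 in spleen and 312 and 60.2 in lymph node.

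In the B cell, T cell, epithelial, erythroid, platelet, plasmacytoid dendritic cell, blood endothelial and fibroblastic reticular lists 0 members each were bright on all 4 arrays. For lists this short that is near the 5.74% of all genes. The plasma cell, NK cell, macrophage and red pulp macrophage lists each had 1 bright member, namely Edem1, Ccl5, Maf and Fth1. The germinal centre and follicular dendritic cell list had 2, Mfge8 and Clu. In the RANK and NF-kB pathway 9 of 20 members on the array were bright. Of 19 tested members 0 passed the test (4 at an unadjusted p under 0.05). That is near the share of all genes called, 0.388% higher in spleen and 0.303% higher in lymph node. Relb, the NF-kB subunit needed for dendritic cell maturation and for medullary thymic epithelium, had signals of 2194 and 2593 in spleen and 1848 and 2272 in lymph node. Of 34 tissue-restricted antigens on the array, chosen as genes whose thymic display is known to depend on Aire or resembles it, 5 passed the filter on low signals and 0 passed the test (0 at an unadjusted p under 0.05). Svs5, a seminal vesicle protein among them, reached 166 on spleen array B.

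**Figure D1:**
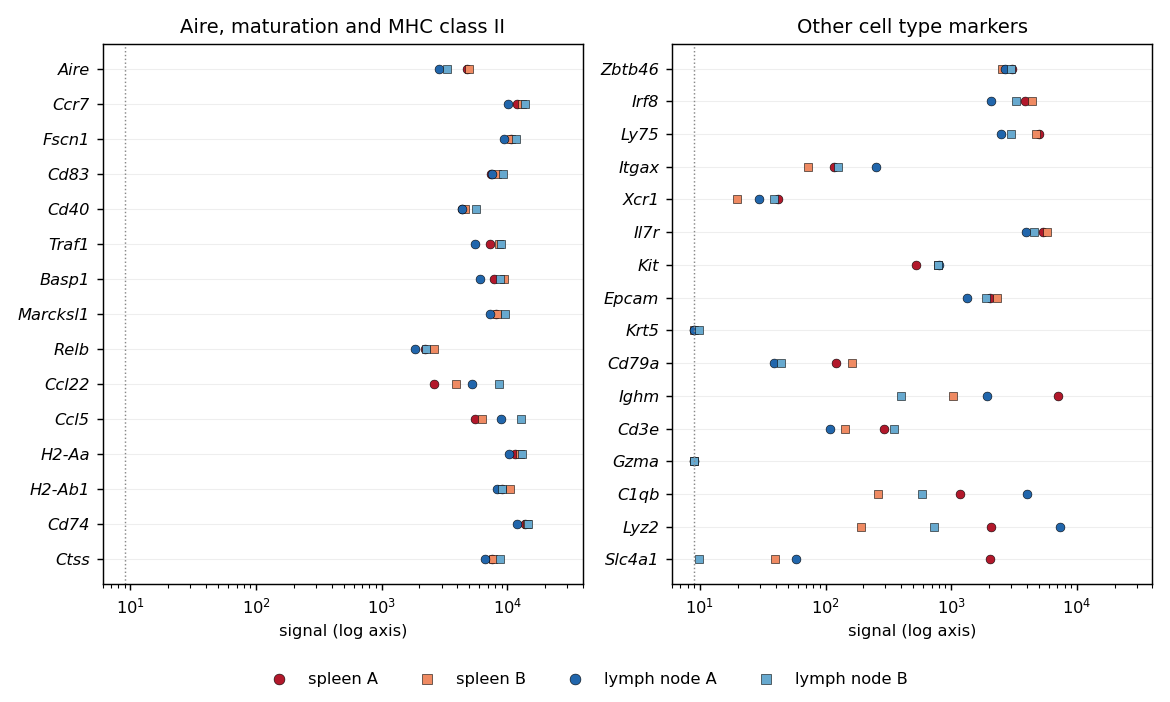
Scaled signal (log axis) on the 4 arrays for Aire, maturation and MHC class II genes (left) and markers of other cell types (right), with 1 point per array and the floor of 9.06 as a dotted line. Ccr7, Fscn1, H2-Aa and Cd74 overlap between the tissues, while both spleen values of Aire, 4759 and 4916, lie above the lymph node values, 2883 and 3339.

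Beside these genes bright in both organs, few transcripts passed the test between the organs. Of 23652 probe sets tested, which exceeded a signal of 55.7, the median over the 4 arrays, on 2 or more of them, 117 or 0.495% passed an adjusted p of 0.05 by limma. Signals were higher in spleen for 70 (0.296%) and higher in lymph node for 47 (0.199%). The probe sets with exactly 1 gene symbol named 47 genes higher in spleen by any probe set, led by Nmrk1, Tnni2 and Maob, and 38 genes higher in lymph node, led by Net1, Fxyd2 and Cd86. Absolute differences of the called probe sets ranged from 1.06 to 6.22 on the log2 scale, and in all 117 the groups did not overlap. Of the 70 higher in spleen 15 had no single gene symbol. Among these 15 was the largest difference, with signals of 4562 and 333 in spleen and 4.68 and 30.3 in lymph node. Of all probe sets tested, 6.48% were at least 2-fold higher in spleen without overlap and 5.26% in lymph node. These calls ended, with 0 in each direction, when the variance prior was not allowed to follow the signal, when no filter was applied, or when lymph node array A was left out. Without scaling, 49.1% of the calls were higher in spleen, against 59.8% here, and the median difference over all probe sets was -0.04, against 0.10 here.

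**Figure D2:**
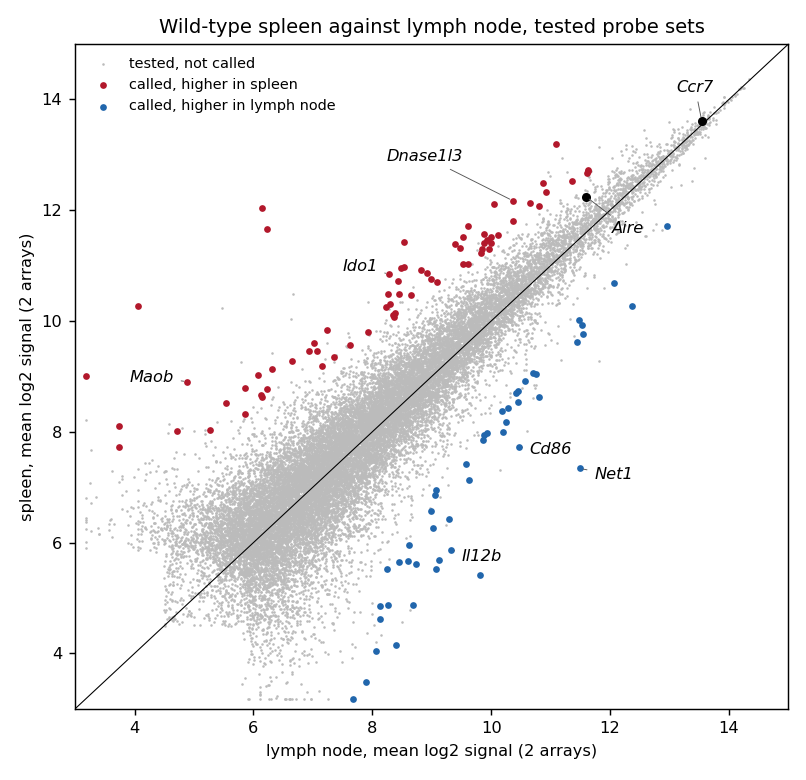
Mean log2 scaled signal in lymph node (horizontal) against spleen (vertical) for the tested probe sets, with those that passed the test in red (70, higher in spleen) or blue (47, higher in lymph node), the rest in grey, and equality as a line. Ido1, Dnase1l3 and Maob lie on the spleen side and Cd86, Il12b and Net1 on the lymph node side, while Ccr7 and Aire, in black, did not pass.

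Genes that passed the test as higher in lymph node included a costimulatory group. Cd86, a B7 ligand that engages CD28 and CTLA-4 on T cells, had signals of 180 and 250 in spleen and 1461 and 1367 in lymph node. The lymph node values lay close together and far above the spleen values. The ratio was 6.67-fold, with a difference of -2.74 ± 0.34 (SE) and an adjusted p of 0.0169. A further probe set of Cd86 differed by -1.69. Cd80, the other B7 ligand, had 220 and 288 in spleen and 950 and 1006 in lymph node, again without overlap. Its ratio was 3.89-fold, the difference -1.96 ± 0.34 (SE) and the adjusted p 0.0396, and its 3 further tested probe sets differed in the same direction, by -1.95, -1.41 and -2.24.

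The wider list of costimulatory and coinhibitory ligands and receptors lay mostly on the same side. The lymph node mean was at least 2-fold above the spleen mean, with no overlap of the arrays, in 9 of 14 tested members, beside 5.23% of all genes tested, and 2 of 14, Cd80 and Cd86, passed the test, beside 0.303%. The median difference was -1.13. A member with both spleen values under the filter on low signals could enter only with higher lymph node values, which favours this count and median. Cd80, Cd86, Tnfsf9 and Cd274 exceeded that filter on every array. Tnfsf9, the ligand of the T cell receptor 4-1BB, had signals of 326 and 323 in spleen and 870 and 1039 in lymph node (adjusted p 0.0745). Tnfsf4, the ligand of OX40, had 23.2 and 87.8 in spleen and 234 and 273 in lymph node (adjusted p 0.148). Cd274, the inhibitory ligand PD-L1, had 522 and 593 in spleen and 1015 and 1318 in lymph node (adjusted p 0.194). Inhibitory and activating ligands were thus on the same side, and neither Tnfsf4, Tnfsf9 nor Cd274 passed the test. By contrast Icosl, the ligand of ICOS, was bright and overlapped between the tissues, at 15460 and 16100 in spleen and 13430 and 17190 in lymph node.

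Cytokine and chemokine genes followed in part. Il12b, the subunit that interleukins Il12 and Il23 share, had signals of 39.9 and 85.1 in spleen and 507 and 807 in lymph node. Every lymph node value was several-fold above every spleen value. The difference was -3.46 ± 0.49 (SE), an 11.0-fold ratio, with an adjusted p of 0.0221. Of 15 cytokine genes tested, 4 were at least 2-fold higher in lymph node without overlap, Il1b, Il6, Il12b and Il18, and 2 in spleen, Il16 and Lif, beside 5.23% and 6.06% of all genes. Only Il12b among these 15 passed the test. The inflammatory cytokine Il1b had 232 and 910 in spleen and 1761 and 1688 in lymph node (adjusted p 0.148).

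Of 18 chemokine genes tested, 6 were at least 2-fold higher in lymph node without overlap, beside 5.23% of all genes, and 1 was so in spleen, beside 6.06%. Ccl22, which draws regulatory T cells, was bright, with signals of 2627 and 3908 in spleen and 5270 and 8605 in lymph node (adjusted p 0.142). Ccl5 was bright too, with 5558 and 6309 in spleen and 8825 and 12830 in lymph node (adjusted p 0.141). Neither passed the test, although their groups did not overlap. The chemokine that passed was Ccl9, which attracts myeloid cells, and it was higher in spleen, with 2321 and 3150 against 950 and 934 in lymph node (difference 1.52 ± 0.27 SE, adjusted p 0.0412).

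C1qb, of the macrophage list, and Lyz2, of the monocyte and neutrophil list, differed between the arrays by letter and, within each letter, by tissue. C1qb, a complement subunit made by macrophages, had signals of 1178 and 263 in spleen and 4000 and 591 in lymph node, and the lysozyme gene Lyz2 had 2057 and 193 in spleen and 7337 and 731 in lymph node. For these 2 genes array A was above array B in each organ, and lymph node above spleen within each letter. Of 15 macrophage genes on the array 8 were tested and 0 passed the test. The 1 at an unadjusted p under 0.05, Maf, was higher in spleen, with signals of 3187 and 2867 against 1597 and 1817 in lymph node. Maf was also the only bright member. The summed signal over the list was 6312 and 4078 in spleen and 9339 and 3562 in lymph node, so on the B arrays spleen was higher. By mean log2 signal of the tested members it was 8.59 and 6.44 in spleen and 9.46 and 7.26 in lymph node, and the median difference was -0.89, with 6 of 8 members higher in lymph node. The defining receptor Adgre1, known as F4/80, stayed under the filter. The list of red pulp macrophage and iron recycling genes lay toward spleen. Of its 9 tested members 3, Slc40a1, Cd163 and Hmox1, were at least 2-fold higher in spleen without overlap, beside 6.06% of all genes. Its median difference was 0.47, and 0 of 9 passed the test. The part of these transcripts in the costimulatory and cytokine differences was not tested.

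The remaining genes of the 12 with the smallest p on the lymph node side came from signalling, transcription and metabolism. Net1, an exchange factor that activates the GTPase RhoA, had signals of 103 and 254 in spleen and 2126 and 3885 in lymph node. This was a 17.8-fold ratio and the smallest p on the lymph node side (difference -4.15 ± 0.45 SE, adjusted p 0.0107). Fxyd2, the gamma subunit that regulates the sodium-potassium pump, had 75.3 and 24.2 in spleen and 906 and 881 in lymph node (difference -4.39 ± 0.54 SE, adjusted p 0.0169). Its 2 further probe sets differed by -3.51 and -3.82. Slfn5, a member of the interferon-inducible Schlafen family, had 45.0 and 47.2 in spleen and 448 and 649 in lymph node (adjusted p 0.0169). For Net1, Fxyd2 and Slfn5 the arrays of a tissue were closer to each other than to the other tissue, which a choice by smallest p favours.

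The transcription factors Plagl1 and Prdm8 also passed the test as higher in lymph node, by 1.82 and 2.19 in size on the log2 scale. So did Efnb2, an ephrin ligand of Eph receptors (974 and 982 in spleen against 2850 and 3084 in lymph node), Mmd, Tmtc2 and Enc1. Nme1, a nucleoside diphosphate kinase, passed with 1 probe set only, since its other tested probe set differed by 0.02. Cd8a, the CD8 alpha chain that T cells and a class of dendritic cells carry, had 95.3 and 141 in spleen and 457 and 618 in lymph node (difference -2.20 ± 0.42 SE, adjusted p 0.0474). The Cd8b1 chain, which marks T cells rather than dendritic cells, had 15.97 and 3.004 in spleen and 2.70 and 3.43 in lymph node, at or near the floor on every array. The T cell list as a body did not follow Cd8a. Of its 10 tested members 3 were at least 2-fold higher in spleen without overlap, while Cd8a was the 1 member so placed on the other side. By direction alone 5 members lay each way, with a median difference of 0.01. Which cells gave the Cd8a signal was not tested.

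**Figure D3:**
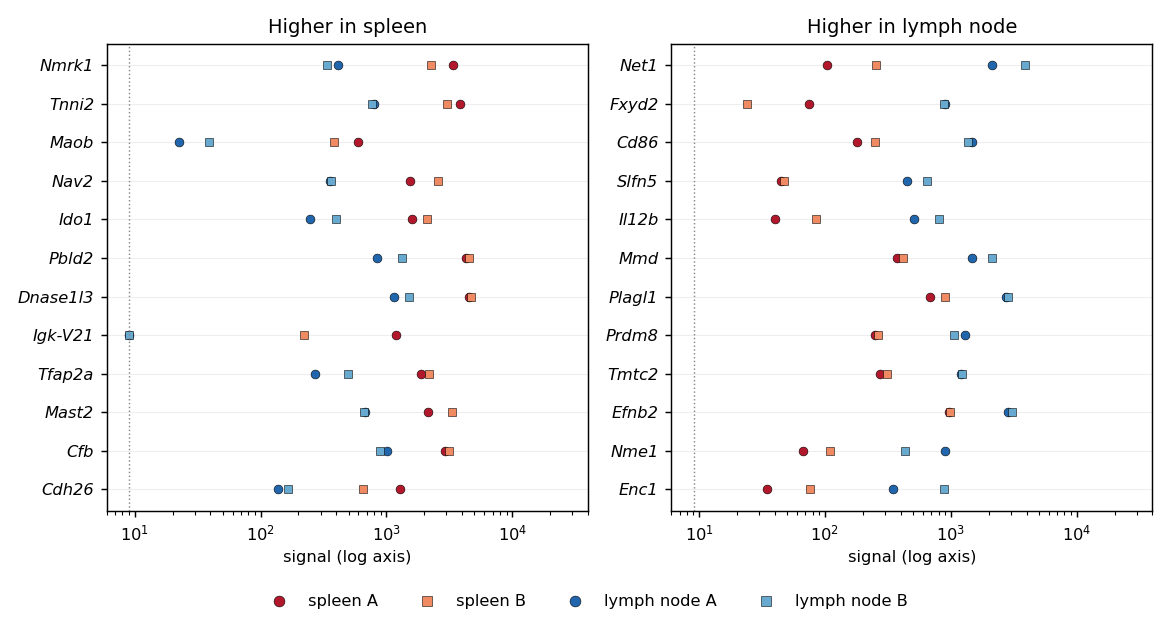
Scaled signal (log axis) on each of the 4 arrays for the 12 genes with the smallest p in each direction, with 1 point per array and the floor of 9.06 as a dotted line. The choice of genes fixed that the tissues do not overlap, and what varies is the distance, as between Igk-V21, with lymph node at the floor, and Efnb2.

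Ido1 was among the genes that passed on the spleen side. Ido1, the tryptophan-degrading enzyme by which dendritic cells restrain T cells, had signals of 1596 and 2116 in spleen and 246 and 395 in lymph node. The groups were far apart, with a 5.90-fold ratio (difference 2.56 ± 0.34 SE, adjusted p 0.0169). Its paralog Ido2 had 859 and 2064 in spleen and 340 and 547 in lymph node, which did not pass (adjusted p 0.145). In the list of retinoid and tolerance enzymes 3 of 9 tested members, Ido1, Ido2 and Itgb8, were at least 2-fold higher in spleen without overlap, beside 6.06% of all genes. In that list 1 of 9 passed the test, beside 0.388% of all genes, and the median difference was 0.76. Aldh1a2, which makes retinoic acid, had 907 and 1007 in spleen and 537 and 533 in lymph node (adjusted p 0.313).

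Nmrk1, a kinase of the NAD salvage route, had the smallest p on the spleen side, with signals of 3356 and 2280 in spleen and 412 and 336 in lymph node (difference 2.90 ± 0.31 SE, adjusted p 0.0107). Its 2 further probe sets differed by only 0.60 and 0.13, so the difference rested on 1 probe set. Maob, a monoamine oxidase of the mitochondrial outer membrane, had 595 and 386 in spleen and 22.5 and 39.0 in lymph node, a 16.2-fold ratio (adjusted p 0.0169). Dnase1l3, a secreted DNase that digests DNA of dying cells and is made by dendritic cells and macrophages, had 4493 and 4723 in spleen and 1148 and 1518 in lymph node (difference 1.80 ± 0.25 SE, adjusted p 0.019). A further Dnase1l3 probe set differed by 1.62. For Nmrk1, Maob and Dnase1l3 both lymph node values stayed below both spleen values.

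Other genes that passed as higher in spleen were structural or regulatory. The transcription factor Tfap2a had signals of 1882 and 2176 in spleen and 273 and 497 in lymph node (adjusted p 0.0201), and its 2 further probe sets differed by 2.87 and 2.33. Nav2, a neuron navigator protein, differed by 2.46, and its 4 further probe sets by 0.58 to 2.48. Cfb, complement factor B, had 2934 and 3161 in spleen and 1012 and 886 in lymph node (adjusted p 0.0236). Tnni2, a fast skeletal muscle troponin, had 3808 and 3003 in spleen and 802 and 769 in lymph node (adjusted p 0.0169), while its other probe set differed by 0.19. Mast2 differed by 1.998, but its further probe sets by 0.66 and -0.85, and Pbld2 and Cdh26 completed the 12.

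Several blood and B lineage transcripts had higher signals in spleen, unevenly over its arrays, and others in lymph node. The immunoglobulin kappa variable segment Igk-V21 had signals of 1202 and 220 in spleen and was at the floor on both lymph node arrays. The mean of both spleen arrays is at least 56.8-fold higher, taking lymph node at the floor (adjusted p 0.0201), and this limit rests on spleen array A: the log2 difference from the floor was 4.60 without it and 7.05 without array B. Segments of this family are alike enough that its probes may read related ones. The kappa segment Igkv9-120 also passed, with 202 and 225 in spleen and 15.6 and 11.3 in lymph node (adjusted p 0.0469 by limma). So did Igkv8-30, with 13200 and 6674 in spleen and 3102 and 1546 in lymph node (adjusted p 0.0396 by limma). The B cell list had 3 of 10 tested members at least 2-fold higher in spleen without overlap, beside 6.06% of all genes, 0 passed the test (2 at an unadjusted p under 0.05), and the median difference was 0.83. Ighm, the IgM heavy chain, had 7129 and 1026 in spleen and 1931 and 400 in lymph node, so the groups overlapped. Jchain, which joins secreted IgM and IgA, had 3145 and 349 in spleen and 381 and 25.8 in lymph node. Slc4a1, the anion exchanger of red cells, had 2039 on spleen array A and 39.3, 58.0 and 9.93 on the others. Toward lymph node lay the B lineage factor Ebf1, at 16.01 and 83.2 in spleen and 104 and 77.3 in lymph node, with overlap. Of the platelet list 2 of 10 members were tested, Pf4 and Itgb3, and both were at least 2-fold higher in lymph node without overlap, beside 5.23% of all genes, by -3.60 and -2.96, without passing the test. Pf4 and Itgb3 exceeded the filter on low signals on the lymph node arrays alone. Their side was thus fixed by the filter, so this count cannot decide whether the platelet list lies toward lymph node.

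S100a9, a calcium-binding protein of neutrophils and monocytes, had signals of 281 and 236 in spleen and 28.98 and 24.04 in lymph node (difference 3.29 ± 0.59 SE, adjusted p 0.0412). Dtx1, a Notch target of marginal zone B cells, had 436 and 447 in spleen and 35.01 and 95.8 in lymph node (adjusted p 0.0439), but its further probe set differed by 0.34. In both, the spleen arrays were close together and well above lymph node. Of 11 monocyte and neutrophil genes on the array 3 were tested, 2 higher in spleen and 1, Lyz2, higher in lymph node. Of 7 tested marginal zone B cell genes 4 were higher in spleen and 3 in lymph node. In each of these lists 1 member passed the test as higher in spleen, beside 0.388% of all genes. How far such cells contribute to the differences between the organs was not tested.

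Interferon-inducible genes were mixed, and the tested members of the epithelial list had higher signals in spleen without passing. Rsad2, the antiviral enzyme viperin, had signals of 6519 and 6746 in spleen and 1750 and 3506 in lymph node (adjusted p 0.0665), and 1 of its 3 tested probe sets passed at 0.0434. In the type I interferon list 2 of 9 tested members, Rsad2 and Stat2, were at least 2-fold higher in spleen without overlap, beside 6.06% of all genes, and the median difference was 0.59. Of these 9 members 6 were higher in spleen and 3 in lymph node, and 0 passed by the probe set read. In the interferon-gamma list 6 of 10 tested were higher in spleen and 4 in lymph node, with a median difference of 0.22. Slfn5, of an interferon-inducible family, passed as higher in lymph node. Among epithelial genes 3 of 8, Cdh1, Krt7 and Cldn7, were at least 2-fold higher in spleen without overlap, beside the same 6.06%. Of the 8, 0 passed (3 at an unadjusted p under 0.05). Cdh1, Krt7 and Cldn7 exceeded the filter on low signals on the spleen arrays alone. That their groups did not overlap was thus fixed by the filter, so this count cannot decide whether the list lies toward spleen. Cdh1, the adhesion protein E-cadherin, had 146 and 260 in spleen and 26.8 and 30.5 in lymph node (adjusted p 0.104), and the median difference of the list was 0.84. The keratin gene Krt7 stayed low in both organs, from 44.8 to 147.

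**Figure D4:**
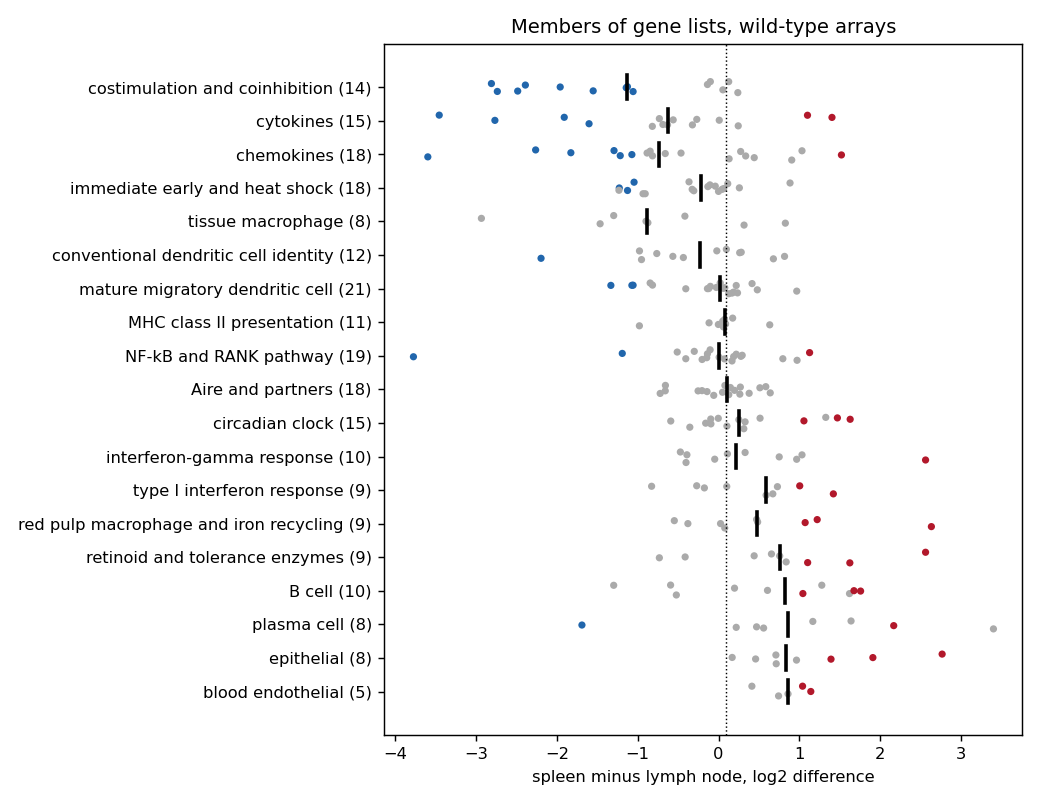
Median spleen minus lymph node difference (log2) over the tested members of each gene list, as a bar, with 1 point per tested member, coloured where the groups were at least 2-fold apart without overlap (red, spleen higher, blue, lymph node higher). The dotted line is the median over all genes tested. The costimulation list lies at -1.13 and the retinoid and tolerance enzyme list at 0.76, beside 0.02 for mature migratory dendritic cell genes.

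Promoters are shown for genes on which these results turn: Aire and H2-Aa, high in both organs, and Cd80, Il12b and Slfn5, higher in lymph node. Each runs 5' to 3' over the 250 bases before the start site, on the gene's strand, in mouse build GRCm38.p6 from RefSeq, and capitals mark a motif match.
Aire, chr10:78043611-78043860, minus strand: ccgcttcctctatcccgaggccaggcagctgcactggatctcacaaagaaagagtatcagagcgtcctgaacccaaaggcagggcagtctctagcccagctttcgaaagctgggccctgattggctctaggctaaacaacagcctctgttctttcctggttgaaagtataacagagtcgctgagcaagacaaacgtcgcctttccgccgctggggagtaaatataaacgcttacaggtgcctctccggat
H2-Aa, chr17:34287824-34288073, minus strand: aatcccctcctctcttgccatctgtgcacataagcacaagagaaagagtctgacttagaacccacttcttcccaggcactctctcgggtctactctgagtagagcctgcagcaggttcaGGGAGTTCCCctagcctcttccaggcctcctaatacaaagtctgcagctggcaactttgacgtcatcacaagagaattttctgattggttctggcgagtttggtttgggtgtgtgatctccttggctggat
Cd80, chr16:38458683-38458932, plus strand: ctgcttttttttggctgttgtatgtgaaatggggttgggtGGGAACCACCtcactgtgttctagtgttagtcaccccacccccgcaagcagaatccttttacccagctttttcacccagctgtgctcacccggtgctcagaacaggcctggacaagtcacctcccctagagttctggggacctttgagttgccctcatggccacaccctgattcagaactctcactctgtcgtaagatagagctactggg
Il12b, chr11:44399813-44400062, plus strand: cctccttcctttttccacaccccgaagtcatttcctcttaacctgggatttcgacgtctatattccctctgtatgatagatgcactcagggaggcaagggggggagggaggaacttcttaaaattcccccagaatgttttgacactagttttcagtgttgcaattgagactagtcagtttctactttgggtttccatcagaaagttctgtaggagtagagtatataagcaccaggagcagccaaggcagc
Slfn5, chr11:82951852-82952101, plus strand: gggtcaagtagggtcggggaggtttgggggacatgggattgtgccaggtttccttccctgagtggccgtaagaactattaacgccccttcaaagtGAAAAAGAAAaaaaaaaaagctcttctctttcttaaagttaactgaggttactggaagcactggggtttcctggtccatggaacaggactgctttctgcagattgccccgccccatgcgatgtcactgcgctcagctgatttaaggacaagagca
The motifs searched, on both strands, were GGGA then any 4 bases then CC, of the type NF-kB binds, and GAAA then any 2 bases then GAAA, of the type interferon-response factors bind. They occurred in 17.6% and 2.98% of 32851 promoters of the same length. H2-Aa held the NF-kB type 131 bases before its start, Cd80 held it 210 bases before, and Slfn5 held the interferon type 155 bases before. The windows of Aire and Il12b held neither. Of the 12 leading genes on the lymph node side 9 had a promoter in the RefSeq table, of which 2 held the NF-kB type and 1 the interferon type, and of those on the spleen side 6 had one, with 2 and 0. A match describes letters only and is no evidence of binding.

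The precision of these values depended strongly on signal. The median SD between arrays A and B of a tissue fell from 0.82 on the log2 scale among the dimmest of 10 bins of probe sets, around a signal of 46.6, to 0.20 among the brightest, around 3278. Differences in Cd86, Ido1 or Dnase1l3 were measured in the better part of that range, and those in Havcr2, Cd70 or Krt7 in the poorer. Havcr2, the inhibitory receptor TIM-3, had 10.8 and 4.61 in spleen and 80.6 and 59.7 in lymph node and an adjusted p of 0.383. With 2 arrays a tissue, an exact permutation of the arrays cannot give a p below 0.3333.

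**Figure D5:**
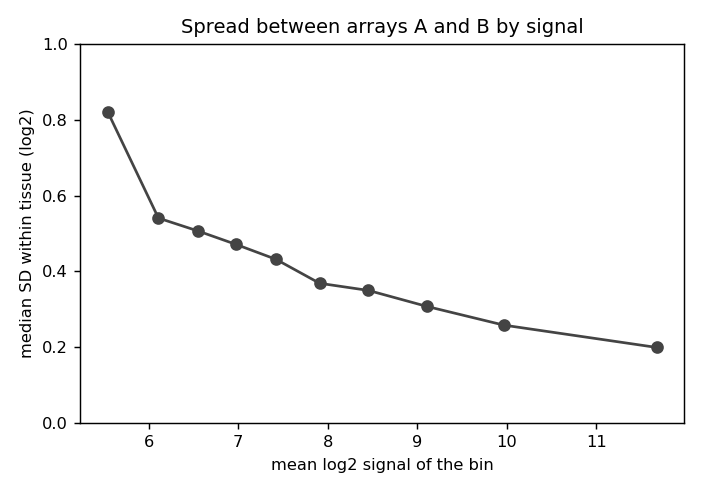
Median SD between arrays A and B within a tissue (log2) for 10 bins of probe sets ordered by mean log2 signal. The SD is 0.82 in the dimmest bin and 0.20 in the brightest.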

How the data were processed

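The deposited table holds linear intensity values, 1 per probe set and array, made with MAS5 by the authors per the submitters' processing notes; its version and settings are not given in the sources at hand. The 2% trimmed mean of each array was 250 in these values, so they had been scaled before deposition. Of 45101 probe sets 64 controls were left out. Gene names came from the platform annotation, in which 34945 probe sets had 1 symbol, 932 several and 9160 none, and RefSeq gene identifiers matched 34741 of these.

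The 4 wild-type arrays were multiplied to a common median, raised to the 20th percentile and taken to log2. Probe sets above the pooled median on at least 2 arrays were tested. In R 4.3.3 with limma 3.58.1 a mean per tissue was fitted and moderated with a prior that follows the signal (2 residual and 9.76 prior degrees of freedom), two-sided, with Benjamini-Hochberg adjustment over all probe sets tested. Filtering used these 4 arrays alone. Tests were checked on simulated data.

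A gene was read from its probe set with the highest mean. Named genes were Aire and 4 markers, the 12 genes with the smallest p in each direction among those at least 2-fold apart without overlap, the called or otherwise up to 4 leading members of each list, and bright members of cell type lists; further members were chosen after their values were seen. The 40 lists had 638 entries, 59 without a match on the array. The members and lists were chosen with earlier results of these data known. No label says that the letters A and B pair the arrays, and deviations of same-lettered arrays correlated at 0.07 over the probe sets tested, so no block was fitted in the reported test, although sex-linked transcripts followed the letter. Intensities give no counts, and the number of arrays limits the precision. Alternatives covered scaling, floor, filter, prior, probe set choice, threshold and each array left out.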

Additional observations from a re-analysis of the deposited data

How the results depend on the processing

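No named gene that passed the test as reported changed direction under the alternatives run, though counts moved. Csf1r, Rrm2 and Eif2s3y, which did not pass as reported, passed in 2, 2 and 1 of 15 settings, and their differences ran from -6.07 to 0.20, from -0.18 to 3.72 and from -3.14 to 4.33. Aire kept a difference of 0.51 to 0.75 and passed in 0 of 16 settings. Higher in spleen and higher in lymph node, 70 and 47 probe sets were called. Without scaling 83 and 86 were called and after quantile normalization 67 and 61. With a floor at the 40th percentile there were 23 and 14, and with probe sets above the median on all 4 arrays 174 and 86, where 18017 were tested. Without a filter 41902 were tested and 0 and 0 were called by limma, with 3487 at an unadjusted p under 0.05 and a smallest adjusted p of 0.335. With a prior without trend 0 and 0 were called, with 2338 at an unadjusted p under 0.05 and a smallest adjusted p of 0.164. With 1 probe set per gene there were 46 and 37, with probe sets averaged per gene 43 and 38, and at an adjusted p under 0.1 there were 121 and 85. The cause of these moves was not tested, beyond the changed number of tests or threshold.

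Leaving out 1 array gave 0 to 225 calls higher in spleen and 0 to 330 higher in lymph node, the lone array being assumed to vary like the other tissue. Without spleen array A there were 156 and 178, without spleen array B 225 and 330, without lymph node array A 0 and 0 (2176 at an unadjusted p under 0.05, smallest adjusted p 0.0868), and without lymph node array B 40 and 1. With the letter as a replicate block 310 and 191 were called, 117 of them shared with the fit without it; no label pairs the arrays by letter, although sex-linked transcripts followed the letter in both organs.

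Over all alternatives the values of named genes stayed on their side of the threshold in 2173 instances, passed it in 58 and lost it in 136. The median differences of lists moved by more than the spread in 57 of their instances and by less in 379. Low signals limit most of the lists of cell types not named as bright.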

Other observations

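Subunits of the sodium-potassium pump and its FXYD regulators were looked at after Fxyd2 was seen to lead the lymph node side, so these genes were chosen after their values were seen. Of 12 such genes on the array 5 were tested, 3 were at least 2-fold higher in lymph node without overlap, beside 5.23% of all genes, and 0 in spleen, beside 6.06%. Atp1b1, the pump's beta subunit, was bright, with signals of 2862 and 3917 in spleen and 8285 and 7714 in lymph node (difference -1.26 ± 0.22 SE, adjusted p 0.0396 by limma). Fxyd5, also called dysadherin, had 379 and 313 in spleen and 1111 and 1395 in lymph node (adjusted p 0.0396). Atp1b3 and Fxyd3 differed by -0.43 and -0.32 and did not pass.

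Clock genes differed in part. Dbp, a transcription factor driven by the clock, had signals of 4102 and 4900 in spleen and 1463 and 1788 in lymph node (difference 1.47 ± 0.24 SE, adjusted p 0.0378). Of 15 clock genes tested, 3 were at least 2-fold higher in spleen without overlap, Arntl, Nr1d2 and Dbp, beside 6.06% of all genes, and 1 passed, beside 0.388%. Arntl, the clock activator BMAL1, had 304 and 399 in spleen and 71.2 and 178 in lymph node (adjusted p 0.224).

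Some probe sets followed the letters in both organs. Array A was at least 2-fold above array B in both tissues for 328 probe sets, and B above A for 429, while 566 were 2-fold apart in opposite directions. The heat shock gene Hspa1b had signals of 1186 and 8543 in spleen A and B and 4713 and 11850 in lymph node A and B.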
